A study of Saccharomyces cerevisiae with 6 samples.

Results

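Transcript levels of the genes that sense uncharged tRNA through the kinase Gcn2 were examined in budding yeast (Saccharomyces cerevisiae). The set was chosen by function and holds 5 genes, GCN2, GCN1, GCN20, YIH1 and GIR2. All 5 were measured, each by 1 probe set, among the 5449 genes of the array that could be named. The series compared 3 arrays of the wild-type strain S288C MAT a, grown with 10 mM 3AT, with 3 arrays of the same background deleted for GCN4 (gcn4Δ, MAT a), grown with 0.1 mM 3AT. 3AT, or aminotriazole, inhibits the histidine enzyme encoded by HIS3 and so leaves cells short of histidine. Both strains grew aerobically in YNB medium in chemostats, where glucose supply limited growth, which was set by dilution at 0.10 per hour. The cultures were kept at 30 °C and pH 5. Strain and dose change together, so no difference below can be assigned to one of them, and no culture without 3AT was analysed here. The labels do not say whether replicates were separate chemostats, so p-values reflect no more than how far these samples differ, and that spread could be technical.

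Gcn2 is a protein kinase with a domain that resembles histidyl-tRNA synthetase and binds tRNA that carries no amino acid. Once active, it phosphorylates the alpha subunit of translation factor eIF2, which slows initiation in general and lets ribosomes reach the coding sequence of GCN4, the activator of amino acid biosynthesis genes. Gcn1 is a very large ribosome-bound protein that Gcn2 needs to respond to uncharged tRNA, and Gcn20 is an ABC-family protein that binds Gcn1. Yih1 and Gir2 carry the same kind of domain (RWD) with which Gcn2 binds Gcn1. When overproduced, each competes with Gcn2 for Gcn1 and dampens the response. The comparison asks whether the transcripts of this sensor stand at other levels in cells that lack the downstream activator and were given less of the inhibitor.

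The median intensity of the named yeast genes lay between 665 and 712 on the 6 arrays, and the background level, set by probe sets for other genes, between 17.9 and 25.2. Precision is limited by the number of arrays. GCN4 read 7312, 7309 and 7248 in wild type replicates 1, 2 and 3 and 14.5, 213 and 11.4 in gcn4Δ replicates 1, 2 and 3. The 213 of gcn4Δ replicate 2 lay well above that array's background level of 25.2, and its cause was not tested. The values of gcn4Δ replicates 1 and 3 lay below theirs. HIS3 and HIS4, targets of Gcn4, were at log2 changes of -2.27 and -1.16 in gcn4Δ (adjusted p = 7.08e-05 and 0.00062, limma). Wild type replicate 1 stood apart: the median gene lay 0.19 on the log2 scale from its average over the remaining wild-type arrays, against 0.079 to 0.14 for the other 5 arrays. All 6 fixed markers of MATa cells, such as the pheromone receptor gene STE2, were above background on every array, as were the 4 of MATα cells. The background level thus does not separate the 2 sets. Intensities ran from 290 to 3713 for the MATa markers and from 30.5 to 379 for the MATα markers, though different probe sets are not directly comparable.

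None of the 5 sensor genes passed the limma test between the strains (adjusted p under 0.05), whereas 11.3% of all genes did. At an unadjusted p under 0.05 the count was also 0 of 5, against 28.6% of all genes. In each of the 5 genes the wild-type and gcn4Δ values overlapped, while 35.7% of all genes had groups that did not overlap. The fitted changes ran from -0.27 for YIH1 to 0.18 for GCN1 on the log2 scale, 2 of them above and 3 below 0. Their median was -0.033, and that of all genes 0.035. The 95% intervals of all 5 changes lay inside 2-fold in both directions, as did those of 88.1% of all genes. The interval bound farthest from no change was 1.45-fold, on the side of a lower YIH1 level in gcn4Δ. A miss of the threshold does not show equal levels, and differences inside these intervals cannot be told from none here.

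**Figure D1:**
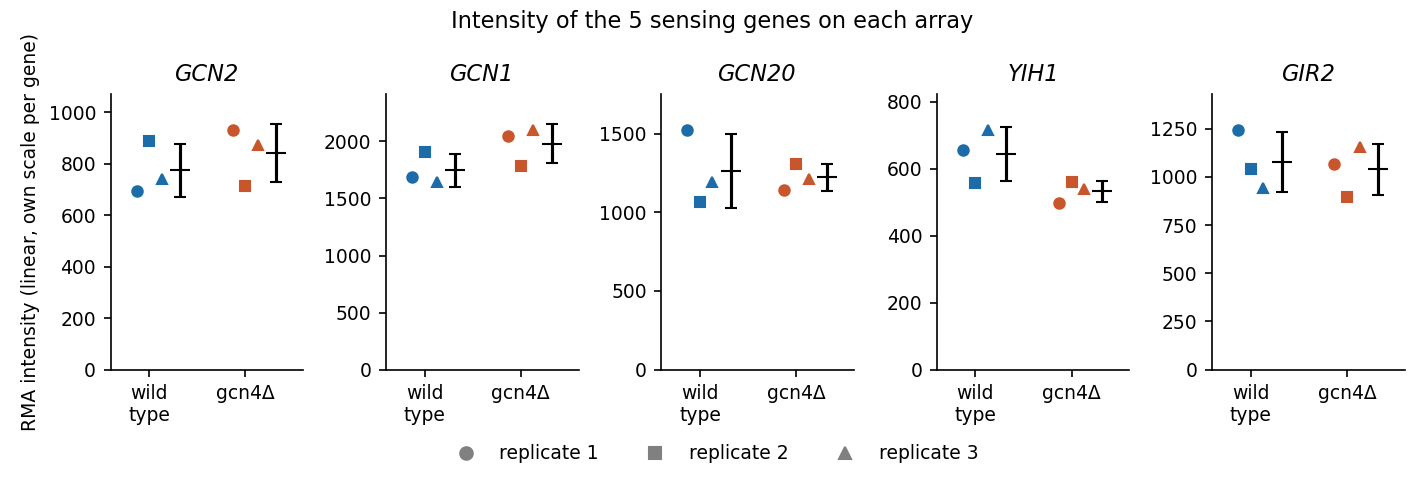
RMA intensity (linear scale from 0, a separate axis for each gene) of the 5 genes on each of the 3 wild-type (blue) and 3 gcn4Δ (orange) arrays, with marker shapes for replicate numbers and black bars for the mean ± SD. The strains overlap in every panel; the YIH1 panel has the least overlap, with gcn4Δ at 498 to 560 and the wild type at 558 to 717.

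GCN2 (YDR283C), the kinase itself, read 692, 889 and 740 in wild type replicates 1, 2 and 3 and 932, 714 and 873 in gcn4Δ replicates 1, 2 and 3. The highest wild-type value exceeded 2 of the 3 gcn4Δ values, so the groups overlapped over most of their range. The means were 774 ± 102 and 840 ± 113 (SD, n = 3 each), and gcn4Δ was higher by 0.12 ± 0.14 on the log2 scale (SE, 95% interval -0.22 to 0.45, adjusted p = 0.614, limma). In fold terms the interval reached from 0.859 to 1.37. A smaller change was found for 34.0% of all genes, whatever its direction. Omitting replicate 1 of the wild type brought the change to 0.041 and omitting that of gcn4Δ to 0.037, while omitting replicate 2 gave 0.22 for the wild-type array and 0.23 for the gcn4Δ array.

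GCN1 (YGL195W), the ribosome-bound activator of the kinase, read 1688, 1910 and 1643 in wild type replicates 1 to 3 and 2050, 1787 and 2105 in gcn4Δ replicates 1 to 3. Of the gcn4Δ arrays, 2 were above all wild-type arrays, and gcn4Δ replicate 2 was below wild type replicate 2. The log2 change was 0.18 ± 0.11 (SE, 95% interval -0.069 to 0.43, adjusted p = 0.302, limma), from means of 1747 ± 143 and 1980 ± 170 (SD, n = 3 each). GCN1 varied least of the 5 genes over the arrays, with an SD of 0.15 on the log2 scale over all 6, and 35.9% of all genes had a smaller one.

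GCN20 (YFR009W), whose product binds Gcn1, read 1527, 1067 and 1194 in the wild type and 1142, 1309 and 1215 in gcn4Δ. Every gcn4Δ value fell between the lowest and highest wild-type values. The spread was wider in the wild type, at a coefficient of variation of 18.8% against 6.87% in gcn4Δ, and the high value was that of wild type replicate 1. The log2 change was -0.033 ± 0.14 (SE, 95% interval -0.38 to 0.31, adjusted p = 0.901, limma). It was 0.11 without wild type replicate 1 (adjusted p = 0.508) and 0.014 when gcn4Δ replicate 1 was left out, so its sign depends on single arrays.

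YIH1 (YCR059C), the inhibitor that also binds actin monomers, had the largest fitted change of the 5. It read 654, 558 and 717 in the wild type and 498, 560 and 539 in gcn4Δ. The groups overlapped narrowly, since wild type replicate 2 lay just under gcn4Δ replicate 2. The means were 643 ± 80.1 and 532 ± 31.2 (SD, n = 3 each), and the log2 change was -0.27 ± 0.12 (SE, 95% interval -0.54 to 0.0070, adjusted p = 0.184, limma). The value moved with single arrays: it was -0.37 without wild type replicate 2 (adjusted p = 0.0883) and -0.18 without wild type replicate 3 (adjusted p = 0.361). A smaller change was found for 65.9% of all genes.

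GIR2 (YDR152W), whose product binds Gcn1 and the GTPase Rbg2, read 1246, 1041 and 941 in the wild type and 1066, 896 and 1156 in gcn4Δ. The lowest array was a gcn4Δ array and the highest a wild-type array, with the others mixed between them. The log2 change was -0.048 ± 0.14 (SE, 95% interval -0.39 to 0.29, adjusted p = 0.850, limma), and only 14.6% of all genes had a smaller one. Its sign depended on single arrays, since it was 0.063 with wild type replicate 1 omitted and 0.055 when gcn4Δ replicate 2 was.

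Although none of the 5 passed the test between the strains, they did not vary over the arrays in one way. GCN1 and GCN2 were close to each other: both stood highest in wild type replicate 2 within the wild type and lowest in gcn4Δ replicate 2 within gcn4Δ. After each gene's own mean was subtracted, the root mean square difference between them over the 6 arrays was 0.084 on the log2 scale. Of the 5274 genes compared with GCN2, GCN1 ranked 57 in likeness. Seen from GCN1, however, GCN2 ranked only 335 of 5274. GCN20 ran the other way, lowest in wild type replicate 2 and highest, within gcn4Δ, in replicate 2, and its difference from GCN2 was 0.32. YIH1 was as far from GCN2, at 0.32, and GIR2 lay between, at 0.22. Beside this, across all genes, the deviations from the strain mean correlated between wild type replicate 2 and gcn4Δ replicate 1 (Pearson's r = 0.559 across genes, which are not independent replicates). This was the highest value among the pairs of a wild-type and a gcn4Δ array, where the others ran from -0.385 to 0.293. Deviations from a mean of 3 arrays also offset one another. On wild type replicate 2 and gcn4Δ replicate 1, GCN2 was the highest of its strain and GCN20 the lowest. The part of such array-wide differences in the patterns was not tested.

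**Figure D2:**
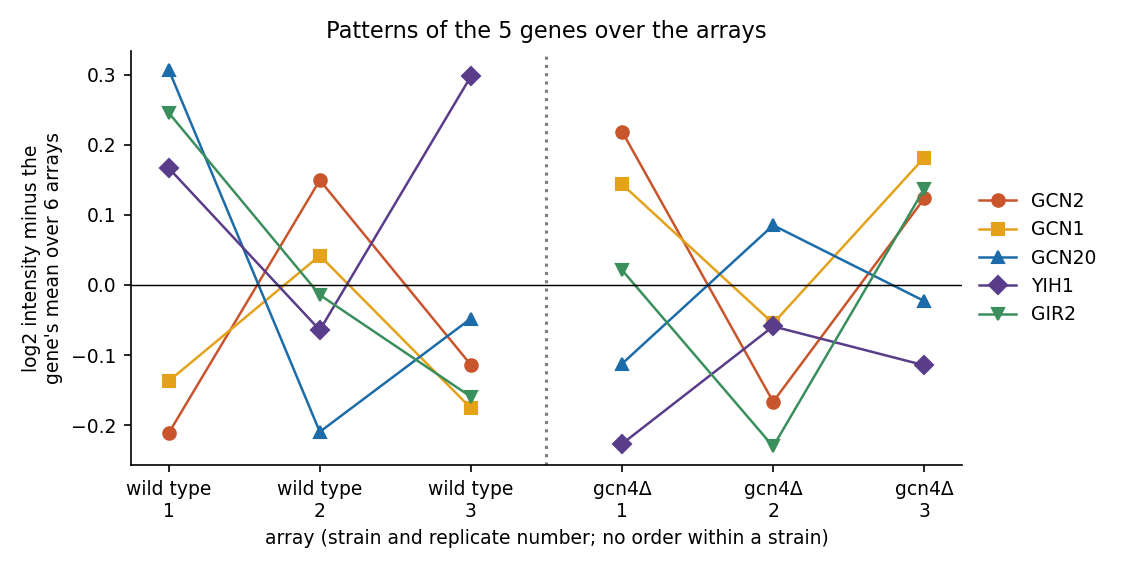
Log2 intensity of GCN2, GCN1, GCN20, YIH1 and GIR2 minus each gene's mean over the 6 arrays, for the 3 wild-type (left) and 3 gcn4Δ arrays (right); the lines only link the points of a gene. GCN2 and GCN1 trace similar shapes, 0.084 apart on the log2 scale, and GCN20 opposite ones, 0.32 from GCN2.

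The genes most like each member by the same measure over the 6 arrays were chosen from those above background on all arrays. For GCN1 they were HRQ1, a RecQ-family DNA helicase, and LCD1, a DNA damage checkpoint gene, both 0.021 away. For GCN2 they were SPA2, a scaffold of polarized growth, at 0.045 and YSR3, a sphingoid base phosphate phosphatase, at 0.047. RPL6B, a ribosomal protein gene, at 0.037 and ICE2, of the endoplasmic reticulum, at 0.040 were nearest to GCN20. GEP4, a mitochondrial phosphatidylglycerophosphatase, and FLC3 were nearest to YIH1, both at 0.042. YNR021W at 0.020 and RAI1, a partner of the nuclear exonuclease Rat1, at 0.030 were nearest to GIR2. None of these 10 genes passed the test between the strains in limma (adjusted p from 0.202 to 0.963). That outcome was nearly fixed by the choice, since likeness over the 6 arrays includes the change between strains and no member passed.

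The balance between partners was compared as the log2 ratio of 2 members within an array, for 5 pairs that bind or compete. With 3 arrays against 3 the exact permutation test cannot go below p = 0.1. The ratio of YIH1 to GCN1, the inhibitor to the protein it binds, shifted most: relative to the wild-type mean it was 0.080, -0.33 and 0.25 in the wild type and -0.59, -0.23 and -0.52 in gcn4Δ. Wild type replicate 2 lay below gcn4Δ replicate 2, so the groups overlapped. The difference was -0.45 ± 0.21 (SE, n = 3 each, exact two-sided p = 0.2, 0.333 adjusted over the 5 pairs). YIH1 to GCN2 differed by -0.38 ± 0.26 (exact p = 0.2, 0.333 adjusted) and GIR2 to GCN1 by -0.23 ± 0.14 (exact p = 0.2, 0.333 adjusted), also with overlap. The ratio of GCN2 to GCN1 was the steadiest among wild-type arrays, with an SD of 0.094. Among gcn4Δ arrays its SD was 0.096, while that of GIR2 to GCN1 was smaller, at 0.066. GCN2 to GCN1 differed by -0.063 ± 0.078 between the strains (exact p = 0.5, 0.6 adjusted). GCN20 to GCN1 spread more, with an SD of 0.35 in the wild type, and differed by -0.21 ± 0.24 (exact p = 0.6, 0.6 adjusted).

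**Figure D3:**
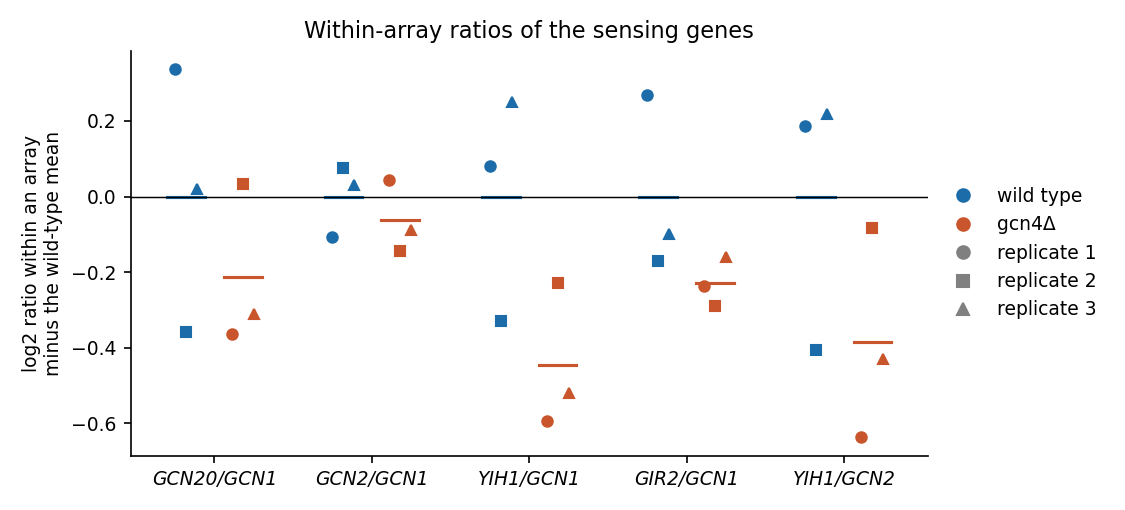
Log2 ratio of 2 genes within each array, minus the wild-type mean of that ratio, for 5 pairs; blue points are wild-type arrays, orange points gcn4Δ arrays, and bars the means. The strains overlap in each pair, and the largest shift between means is that of YIH1 to GCN1, at -0.45.

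Among the genes whose products work around the sensor, 44 of 46 listed were measured. Of these 1, GCN3, was higher in gcn4Δ, where 5.34% of all genes were higher. None was lower, where 327 of 5449 genes were, and 43 did not pass. At an unadjusted p under 0.05 there were 8 of 44, 4 in each direction, against 28.6% of all genes (891 higher, 669 lower).

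The substrate of Gcn2 and its exchange factor eIF2B came next downstream, with 1 of 8 genes higher and a median log2 change of -0.078. SUI2, which encodes the phosphorylated alpha subunit of eIF2, read 2634, 2183 and 1982 in the wild type and 1886, 1753 and 2072 in gcn4Δ, and its log2 change was -0.25 ± 0.13 (SE, adjusted p = 0.258, limma). GCN3, the regulatory subunit of eIF2B that responds to phosphorylated eIF2, read 516, 494 and 513 in the wild type and 615, 624 and 660 in gcn4Δ. All gcn4Δ arrays were above all wild-type arrays. The log2 change was 0.32 ± 0.078 (SE, adjusted p = 0.0457, limma), just inside the threshold. Leaving out any single array ended the call, with log2 changes of 0.29 to 0.34 and adjusted p up to 0.173.

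The list of partners of Gir2 (RBG2) and Yih1 (ACT1) also held RBG1 and TMA46, which belong to the related GTPase. In it 0 of 4 passed, with a median of -0.17. RBG2, the GTPase that Gir2 binds, was at -0.11 ± 0.15 and its relative RBG1 at -0.22 ± 0.11 (SE, adjusted p = 0.656 and 0.241, limma). TMA46, which encodes a partner of Rbg1, had the largest change of the 4, at -0.41 ± 0.15 (SE, adjusted p = 0.141). It read 1091, 822 and 949 in the wild type and 646, 659 and 858 in gcn4Δ, with a single gcn4Δ array above the lowest wild-type array. ACT1, the actin gene, was at 0.024 ± 0.079 (SE, adjusted p = 0.871).

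Genes of the ribosomal stalk, which can stimulate Gcn2, of Rps10, a contact of Gcn1, and of ABC factors related to Gcn20 had fitted changes above 0 in 11 of 11 cases (9 of 11 after a further quantile normalization), and 0 passed. Among all 5449 genes, 3037 had changes above 0 (2987 after that normalization). The median of the 11 was 0.0997, against 0.035 for all genes, and the RPS10A and RPS10B probe sets can bind both near-identical genes. ARB1, an ABC factor of ribosome assembly, was the largest at 0.30 ± 0.089 (SE, adjusted p = 0.0813, limma), with 1733, 1996 and 1973 in the wild type and 2367, 2276 and 2346 in gcn4Δ. Its groups did not overlap.

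Genes of phosphatases and their subunits, TOR, Snf1 and Hsp90 were listed for possible links to Gcn2 or eIF2 phosphorylation. In this list 0 of 12 passed the threshold (median -0.081). Of these 12, 5 had an unadjusted p under 0.05 in limma (2 higher, 3 lower), against 28.6% of all genes. GAC1, a targeting subunit of the phosphatase Glc7, had the largest change, at 0.97 ± 0.38 (SE, 95% interval 0.070 to 1.87, adjusted p = 0.151, limma). It read 124, 151 and 285 in the wild type and 273, 539 and 275 in gcn4Δ, so wild type replicate 3 lay above 2 of the gcn4Δ arrays. Without gcn4Δ replicate 2 the change was 0.65.

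Of the genes for tRNA supply, 0 of 3 measured passed (median -0.20). HTS1, the histidyl-tRNA synthetase gene whose product charges the tRNA that 3AT leaves empty, read 3897, 3685 and 3793 in the wild type and 3252, 2826 and 3547 in gcn4Δ. The groups did not overlap, and the log2 change was -0.25 ± 0.10 (SE, 95% interval -0.50 to 0.0018, adjusted p = 0.178, limma). TEF2 for elongation factor 1A was at -0.064, but its probe set may also bind the near-identical TEF1. Genes that act on stalled and collided ribosomes, which also engage Gcn1, had 0 of 6 measured members past the threshold (median -0.051). MBF1, a coactivator of Gcn4 that also acts at collided ribosomes, was at -0.25 ± 0.25 (SE, adjusted p = 0.538). Its value of 5452 in wild type replicate 1 exceeded all others, which lay between 2663 and 3757, and the change was 0.021 without that array.

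**Figure D4:**
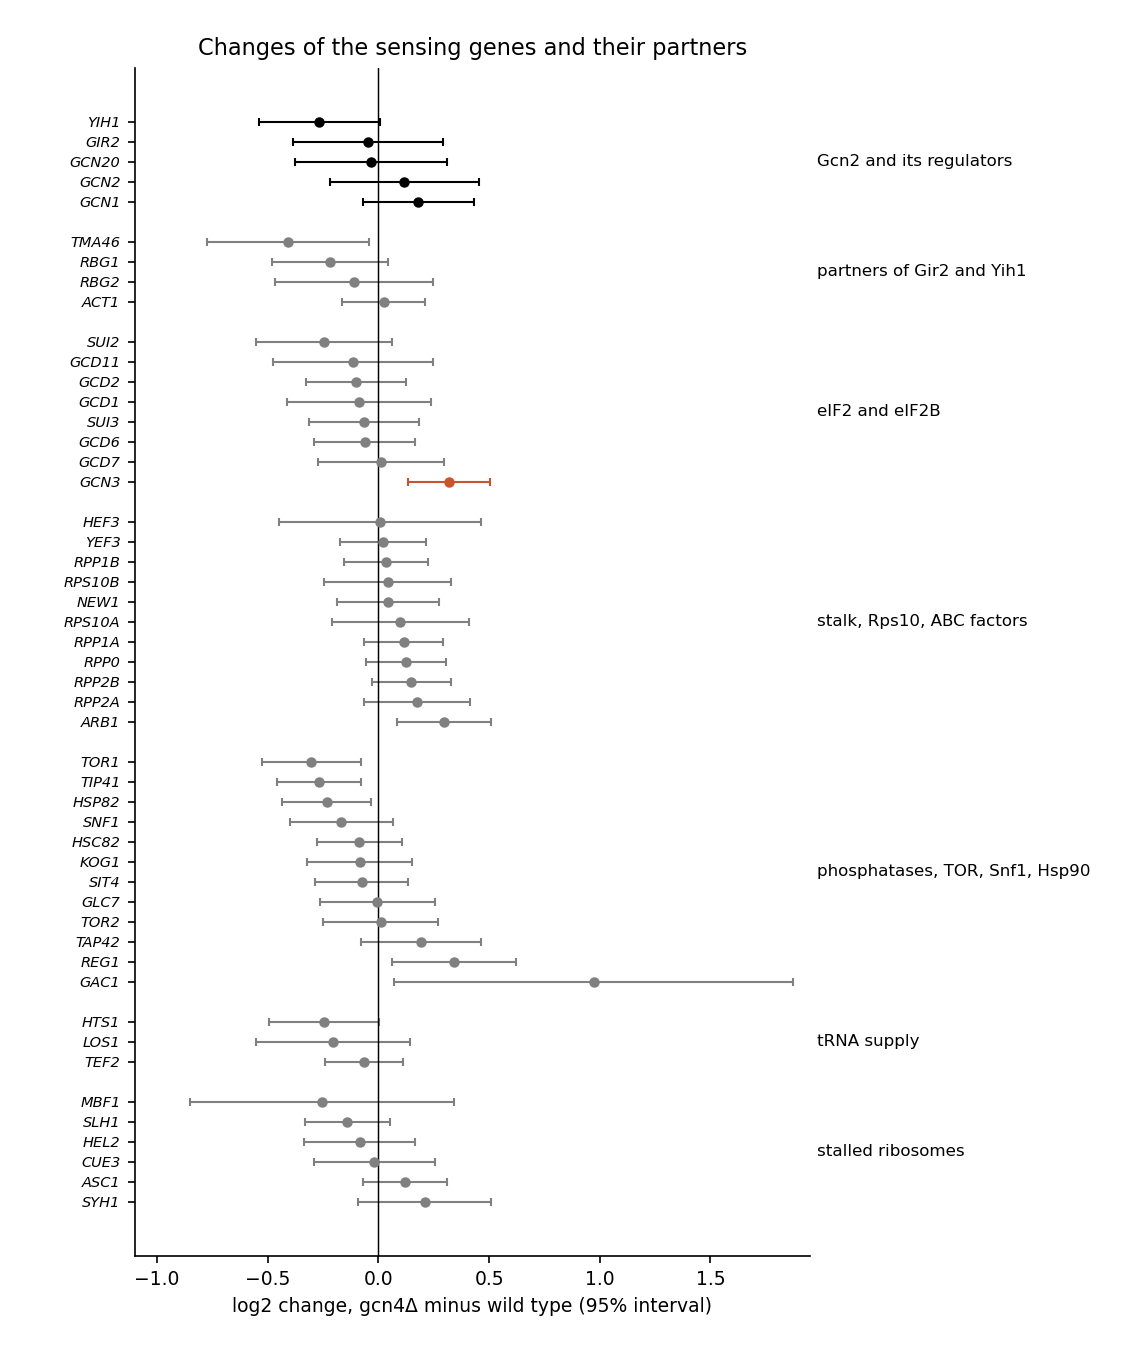
Log2 change (gcn4Δ minus wild type, limma) with its 95% interval for the 5 sensor genes (black) and 44 measured genes of 6 partner lists (grey; orange for the gene at an adjusted p under 0.05). GCN3 of eIF2B, at 0.32, is the single gene marked as past the threshold, and GAC1 has the widest interval, 0.070 to 1.87.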

How the data were processed

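Per the submitters' processing notes the arrays were processed with RMA, and the deposited table holds a linear intensity for every probe set on every array. Not given in the sources used here are the RMA version, the genome build and whether the 6 arrays were normalized together. RMA sets arrays to one distribution, so a shift shared by most genes would not show. Log2 was taken with no pseudocount or further scaling.

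Of 10928 probe sets, 5498 matched 5449 S. cerevisiae genes through the platform annotation and the R64 reference table, used for names and neighbours. The brightest probe set stood for a gene. Named probe sets of other genes (1746) gave the background level, their 95th percentile on each array. The test was limma 3.58.1 in R 4.3.3 (lmFit, eBayes), gcn4Δ minus wild type over all 5498 probe sets, with Benjamini-Hochberg adjustment at 0.05, and was tested on simulated data. Shares and counts are over genes. SE and 95% intervals are those of limma, except that ratios carry the SE of a difference of means.

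Named were the 5 members, GCN4, HIS3, HIS4, GCN3, SUI2, HTS1, RBG1, RBG2, ACT1, list genes past the threshold or else the largest change of a list, and the 2 genes most like each member. Members and lists were chosen with earlier results of these data known. TEF2 was chosen after its values were seen. The listed TEF1 and RQT4 were not analysed here, nor were sequences. Figures used matplotlib 3.10.9 in Python 3.11.15.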

Additional observations from a re-analysis of the deposited data

How the results depend on the processing

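The fit was repeated with a replicate block, with each array omitted, after a new quantile normalization or median centring, without the dimmest 25% of probe sets, with trended robust variances, with array weights and with probe sets averaged per gene. In none of the 13 alternatives did any of the 5 sensor genes pass the threshold. The lowest adjusted p was 0.0753, for YIH1 with array weights, an estimate that stopped short of its convergence tolerance. Leaving out 1 array at a time, the log2 change was 0.037 to 0.23 for GCN2, 0.13 to 0.25 for GCN1, -0.15 to 0.11 for GCN20, -0.37 to -0.18 for YIH1 and -0.14 to 0.063 for GIR2. With array weights GCN20 and GIR2 also changed sign, to 0.0083 and 0.047. The 5 ratios kept their direction in all 7 of their alternatives.

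Among the other named genes the sign depended on the array left out for RBG2 (-0.23 to 0.033), ACT1 (-0.0011 to 0.054), MBF1 (-0.43 to 0.021), MF(ALPHA)1 (-0.88 to 0.21), SPA2 (-0.037 to 0.15), ICE2 (-0.15 to 0.10), RPL6B (-0.091 to 0.16), YNR021W (-0.14 to 0.065) and RAI1 (-0.16 to 0.034), none of them called. YNR021W was also at 0.021 after the new quantile normalization and 0.046 with array weights, and RAI1 at 0.0052 with array weights.

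Of all genes, 618 passed, 210 with the replicate block, 220 to 713 with 1 array left out and 1443 with array weights. Omitting gcn4Δ replicate 1, 2 or 3 gave 220, 258 and 372, and omitting wild type replicate 1, 2 or 3 gave 713, 553 and 384. Same-numbered arrays did not deviate together (r = -0.339, -0.385 and -0.228 across genes). Deviations from a mean of 3 arrays offset one another, so these values cannot show whether same-numbered arrays were handled together. The count of eIF2 and eIF2B genes was 0 with the replicate block and 0 in each omission, where GCN3 lost its call. With array weights TMA46, 1 stalk or ABC gene (ARB1) and 3 of the phosphatase and TOR list passed. The causes were not tested, and every omission also leaves fewer arrays. Between 3 arrays a group, the median half-width of a 95% interval was 0.27 on the log2 scale.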

Other observations

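Of the protein-coding genes next to the 5 sensor genes in the reference table, 9 were measured, and none overlaps a sensor gene. None passed the test in limma, and 1 of the 9 had an unadjusted p under 0.05, against 28.6% of all genes. The log2 changes of the 9 ran from -0.53 for CTH1, an mRNA-binding protein gene beside GIR2, to 0.079 for DPP1. DPP1 is a lipid phosphatase gene beside GCN2. Of the 9 changes, 8 were below 0, against 2412 of all 5449 genes. The neighbours were looked up after the values were seen.

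Of the pheromone and mating genes used to check the mating type, 0 of 6 MATa markers and 0 of 4 MATα markers passed the test. MFA1, an a-factor gene, read 0.51 higher in gcn4Δ on the log2 scale (adjusted p = 0.144, limma). With wild type replicate 3 omitted it passed, at 0.73 (adjusted p = 0.0282). MF(ALPHA)1, the main α-factor gene, was at -0.48 (adjusted p = 0.609).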
